A study of Mus musculus with 76 samples.

Results

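The comparison described here sets alveolar septa of cigarette smoke-exposed mice at 8 months against septa of smoke-exposed mice at 3 months. The arrays were chosen by their labels alone, and 20 of the 76 arrays in the series belong to it. They fall into 4 groups of 5 mice: Noxo1 knockout at 8 months, wild-type at 8 months, Noxo1 knockout at 3 months and wild-type at 3 months. Each array carries RNA of septa that were microdissected from the lung of 1 mouse, amplified and labelled with Cy5. The knockout is given in the labels as C57BL/6-Noxo1(tm1881_17.2Arte). Mice of both genotypes breathed smoke at 140 mg/m3 of particles for 6 h on 5 days per week, beginning in week 12. The protocol text names 8 months for all mice, so the month of each group was taken from its title. Septa of control mice (10 at 8 months, 9 at 3 months) and vessels of the same smoke-exposed mice (8 arrays at 8 months, 10 at 3 months) served for comparison. Age, length of exposure and any difference in handling between the time points run together in this design and cannot be told apart.

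Alveolar septa are the thin walls of the air spaces, built of type 1 and type 2 pneumocytes, capillary endothelium and fibroblasts, with macrophages lying on and within them. Long smoke exposure destroys these walls in mice and in humans, which is emphysema, and it brings macrophages into the air spaces. NOXO1 is the organiser subunit of the NOX1 NADPH oxidase, an enzyme complex that makes superoxide. NRF2, encoded by Nfe2l2, is the transcription factor that switches on antioxidant genes. Chil3, Chil4 and Retnla encode secreted proteins of macrophages and epithelium that are made in quantity under interleukin 4 and interleukin 13.

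Promoters of 4 genes that rose with time are shown as examples. They are a pair of neighbouring chitinase-like genes, a further secreted macrophage protein and the antioxidant regulator, and were not picked by how stable their calls were. Each is the 250 bases before the start of the gene in RefSeq, build GRCm38.p6, written 5′ to 3′ on the gene's strand. The Chil3 window is chr3:106167565-106167814 on the minus strand, and that of Chil4 is chr3:106219480-106219729 on the minus strand. In both, capitals mark the longest stretch that they share, 44 bases, and over 221 aligned bases the windows were 91.0% identical. The Retnla window is chr16:48842359-48842608 on the plus strand, with capitals at a match to the STAT6 motif, TTC and GAA held apart by 4 bases of any kind, which reads the same on both strands. The Nfe2l2 window is chr2:75704664-75704913 on the minus strand, with capitals at a match to TGACNNNGC, the core of the antioxidant response element, searched on both strands.
Chil3: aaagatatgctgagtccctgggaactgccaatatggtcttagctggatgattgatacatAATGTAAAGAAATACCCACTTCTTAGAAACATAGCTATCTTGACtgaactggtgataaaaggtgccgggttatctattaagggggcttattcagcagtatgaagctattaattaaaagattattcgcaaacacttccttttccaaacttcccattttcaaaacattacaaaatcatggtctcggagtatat
Chil4: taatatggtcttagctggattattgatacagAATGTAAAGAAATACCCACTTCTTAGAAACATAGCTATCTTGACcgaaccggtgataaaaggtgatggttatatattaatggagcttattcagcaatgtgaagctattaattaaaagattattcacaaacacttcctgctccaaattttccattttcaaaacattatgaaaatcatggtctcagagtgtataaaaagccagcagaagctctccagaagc
Retnla: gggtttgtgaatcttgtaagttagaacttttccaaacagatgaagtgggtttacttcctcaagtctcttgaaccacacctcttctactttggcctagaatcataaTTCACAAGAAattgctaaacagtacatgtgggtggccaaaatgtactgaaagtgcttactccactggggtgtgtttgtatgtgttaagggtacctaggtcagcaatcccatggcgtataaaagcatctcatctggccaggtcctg
Nfe2l2: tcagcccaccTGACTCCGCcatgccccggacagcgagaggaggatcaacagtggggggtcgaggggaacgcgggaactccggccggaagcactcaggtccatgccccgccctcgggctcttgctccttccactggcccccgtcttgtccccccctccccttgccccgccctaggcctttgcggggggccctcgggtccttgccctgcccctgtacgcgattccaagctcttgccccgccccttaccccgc
The STAT6 motif was found in 1923 of 32851 promoter windows of this length (5.9%) and in neither chitinase-like window. The antioxidant motif was found in 3338 windows (10.2%). A match is a run of letters and not a binding site.

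Noxo1 was read first, since it checks the genotype labels. In knockout septa its log2 signal was 1.73, 3.10, 2.45, 2.25 and 2.77 at 8 months and 2.26, 1.57, 1.79, 1.64 and 2.97 at 3 months. In wild-type septa it was 5.57, 3.17, 2.49, 3.27 and 2.94 at 8 months and 5.08, 4.02, 5.17, 5.49 and 2.41 at 3 months. At 8 months 2 wild-type arrays lay within the range of the knockout arrays, and at 3 months 1 did. The sources used here do not say whether the probe lies in the deleted stretch. Between time points Noxo1 differed by -0.27 ± 0.44 on the log2 scale (SE, limma adjusted p = 0.876). Odorant and vomeronasal receptor genes, 1322 on the array, give a guide to background. Over all 76 arrays 95% of their single values lay below a log2 signal of 3.99.

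Of 20710 genes 144 changed with time in smoke-exposed septa at an adjusted p under 0.05 in limma (0.695% of genes). There were 99 that rose (0.478%) and 45 that fell (0.217%). The largest rises with a gene name were those of the secreted macrophage and epithelial proteins Chil3 and Retnla, the amino acid transporter Slc6a14, the surface protein Plet1 and the kinase Map3k8. Nfe2l2 rose 2.14-fold, and the cholesterol exporter Abcg1 rose 2.83-fold. Among the falls were the chromatin remodeller Arid1a, the signalling adaptor Gab2, Rgs4, Lbh and the dystrophin relative Utrn. Rises had a median of 1.05 and falls a median of -1.21 on the log2 scale, and 81 of the 144 changed 2-fold or more.

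Groups of 10 arrays overlapped for nearly every gene. Only 4 of 20710 genes (0.0193%) had all 8-month values on one side of all 3-month values. Nfe2l2 and Chp1 were higher at 8 months, and Gm2710 and the odorant receptor Olfr1134 were lower. A second, dimmer Chp1 probe differed by -0.32 ± 0.45 (SE). Of the 99 rises 9 had a 3-month mean below 3.99, so their folds are against a level near background. Of the 45 falls 8 had an 8-month mean below 3.99. Receptor genes, which should be silent here, supplied 4 of the 144 calls (Olfr1094, Olfr1134, Olfr213 and Olfr324), 0.303% of those on the array.

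Both chitinase-like genes rose. Chil3 had a lowest, median and highest log2 signal of 12.06, 12.76 and 14.14 at 8 months, against 4.89, 9.89 and 12.40 at 3 months. In 8 of 10 arrays at 8 months the signal exceeded every 3-month array, and 1 wild-type array at 3 months lay far below the others. The difference was 2.85 ± 0.53 (SE, 7.19-fold, limma adjusted p = 0.00422). Chil4 had 3.24, 5.26 and 7.29 at 8 months, against 1.15, 2.76 and 4.39 at 3 months. The ranges overlapped, and most 3-month arrays were at background. It rose by 2.28 ± 0.48 (SE, adjusted p = 0.0102). Chil3 and Chil4 are close copies, and how far their probes share targets was not tested.

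Retnla, which encodes a secreted resistin-like protein of macrophages and airway epithelium, had 5.81, 6.86 and 9.01 at 8 months, against 2.18, 5.20 and 6.24 at 3 months. All but 1 array at 8 months lay above every array at 3 months. It rose by 2.75 ± 0.67 (SE, limma adjusted p = 0.0363), and the call was kept in 8 of 20 fits that left out 1 array. In control septa the Retnla means were 6.69 ± 2.88 at 8 months and 6.65 ± 0.91 at 3 months (SD, n = 10 and 9). The smoke-exposed means were 7.30 ± 1.16 at 8 months and 4.56 ± 1.66 at 3 months (SD, n = 10 each), so the 3-month smoke-exposed group was the low one of the 4.

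**Figure D1:**
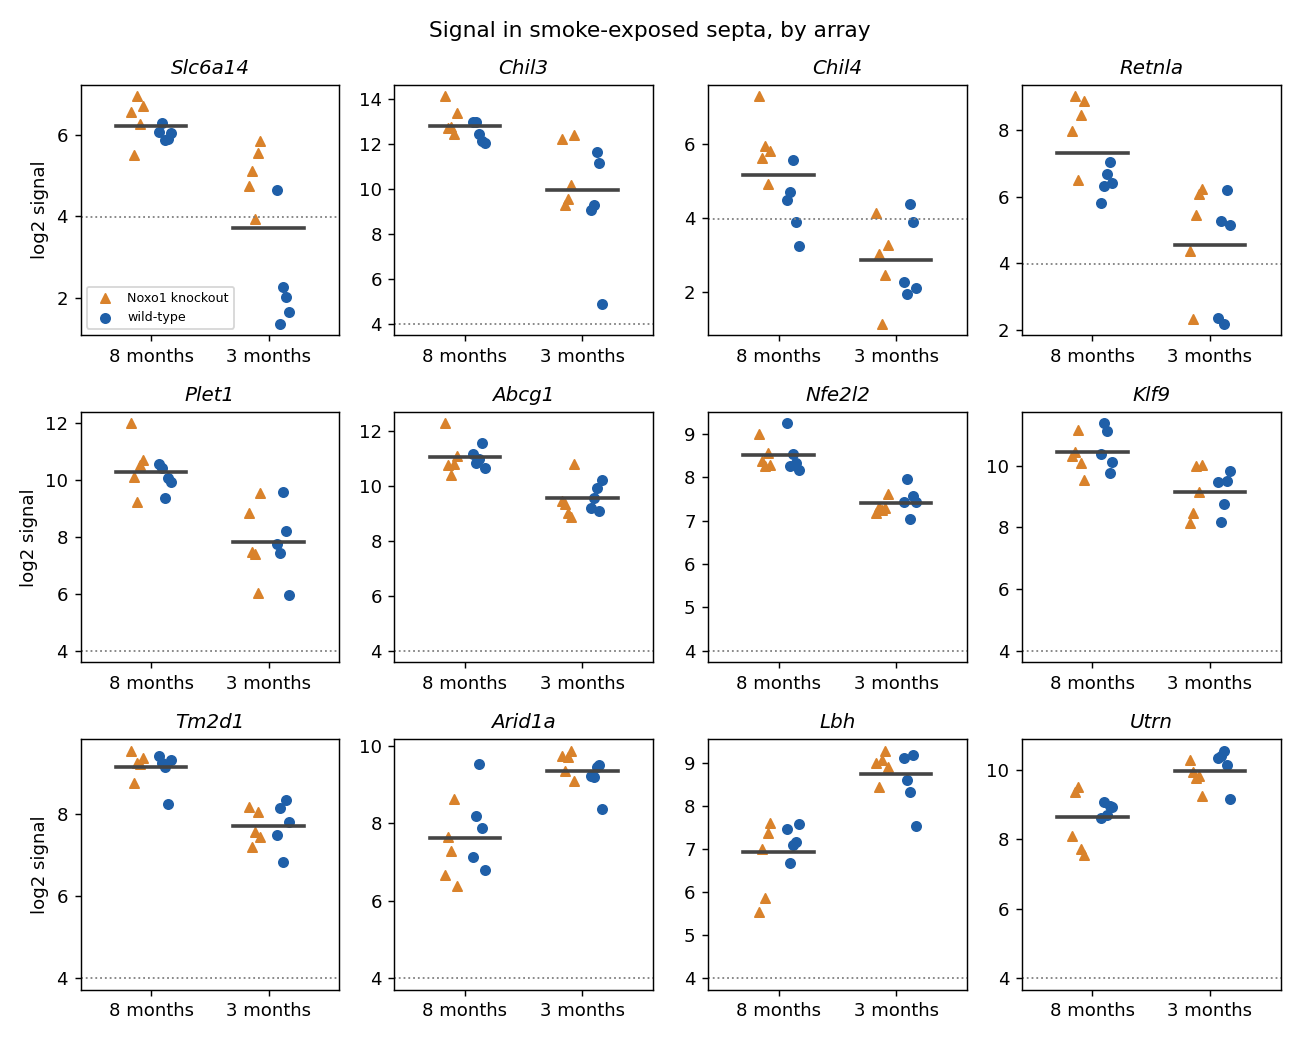
Log2 signal of 12 genes in each array of smoke-exposed septa, at 8 months and at 3 months. Triangles are Noxo1 knockout and circles wild-type mice, and bars are the means of 10 arrays. The dotted line is the 95th percentile of the single values of receptor genes, 3.99. Nfe2l2 is the gene among the 12 whose groups do not overlap, and the 3-month wild-type arrays of Slc6a14 lie mostly below the dotted line.

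Slc6a14, a transporter of neutral and basic amino acids on the epithelial surface, gave the joint lowest adjusted p of all genes. At 8 months it had 6.56, 5.49, 6.94, 6.25 and 6.71 in knockout septa and 6.07, 6.29, 5.88, 5.89 and 6.05 in wild-type septa. At 3 months it had 4.75, 5.11, 3.93, 5.54 and 5.84 in knockout septa and 4.65, 1.36, 2.27, 2.02 and 1.65 in wild-type septa. All 8-month arrays but 1 knockout array exceeded every 3-month array, and 4 wild-type arrays at 3 months were at background. It rose by 2.50 ± 0.38 (SE, 5.66-fold, limma adjusted p = 0.000735). Control septa had 6.29 ± 0.62 at 8 months and 5.51 ± 0.87 at 3 months (SD, n = 10 and 9).

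Of the genes that mark alveolar macrophages a few passed the test, all of them higher at 8 months. Of 13 measured markers 3 rose (Chil3, Plet1 and Abcg1), none fell and 10 did not pass the test. Over all genes 0.478% rose and 0.695% were called. At that share 0 calls is the usual outcome for a short list, here and in the lists below. All 13 differences were above 0, against 50.9% of all genes, with a median of 1.5, against 0.01 over all genes. Plet1, a surface protein of alveolar macrophages and some epithelium, had 9.20, 10.26 and 11.97 at 8 months, against 5.94, 7.59 and 9.58 at 3 months. The ranges overlapped in a few arrays of each group. It rose by 2.46 ± 0.43 (SE, adjusted p = 0.00266), and a second, dimmer Plet1 probe differed by 0.58 ± 0.64. With the mean of both probes the value was 1.52 (adjusted p = 0.145).

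Abcg1, which exports cholesterol from lipid-laden macrophages, had 10.38, 10.89 and 12.27 at 8 months, against 8.86, 9.40 and 10.78 at 3 months. The ranges overlapped through 1 knockout array at 3 months that stood above its group. It rose by 1.5 ± 0.24 (SE, limma adjusted p = 0.00127). Markers that missed the threshold included Atp6v0d2, a subunit of the proton pump, at 2.39 ± 0.64 (SE, adjusted p = 0.0595). The scavenger receptor Marco differed by 1.74 ± 0.54 (adjusted p = 0.116), the mannose receptor Mrc1 by 1.92 ± 0.63 (0.135) and the lectin Siglecf by 1.74 ± 0.64 (0.206). Pparg, the factor that alveolar macrophages need to mature, differed by 0.47 ± 0.47. In bulk tissue, more cells of a type and more RNA per cell cannot be told apart.

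The mean log2 signal over the 13 markers was 6.62, 7.38 and 8.81 (lowest, median, highest) in smoke-exposed septa at 8 months and 5.06, 6.03 and 7.48 at 3 months. In control septa it was 5.80, 6.75 and 8.32 at 8 months and 5.12, 6.53 and 7.02 at 3 months. The smoke-exposed 8-month arrays were the high group, although all 4 ranges overlapped. The median difference with time was 1.5 in smoke-exposed septa, 0.48 in control septa and 0.10 in smoke-exposed vessels. Of the 13 markers 9 were above 0 in control septa and 8 in vessels. In neither was a marker called, and 0 of 13 is near the share over all genes, 0.478% in control septa and 0.188% in vessels.

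**Figure D2:**
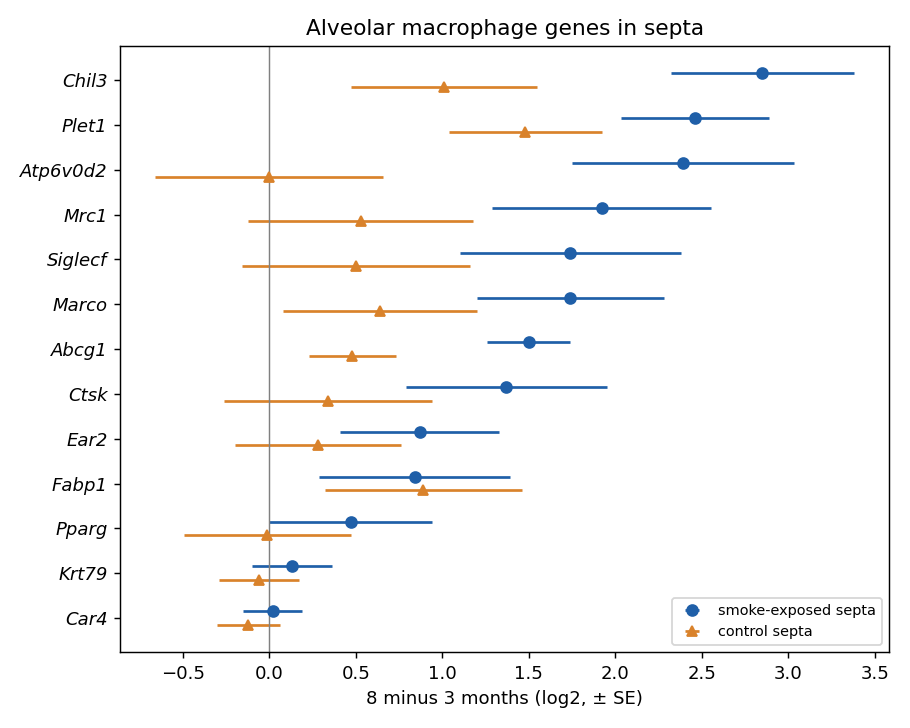
Difference in log2 signal, 8 minus 3 months, of 13 alveolar macrophage markers in smoke-exposed septa (circles) and control septa (triangles). Bars are ± SE. In smoke-exposed septa Chil3 stands at 2.85 and Car4 at 0.02.

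Genes of lysosomes and lipid handling pointed the same way without calls. Of 19 members 17 were above 0 in smoke-exposed septa, with a median of 0.38 and 0 called. In control septa 15 were above 0, with a median of 0.18 and 1 called, Lamp2. Npc2, a lysosomal cholesterol carrier, differed by 0.67 ± 0.18 (SE, adjusted p = 0.066), lipoprotein lipase Lpl by 1.23 ± 0.34 (0.0708) and the fatty acid carrier Fabp4 by 2.29 ± 0.70 (0.104). Outside the list, the lysosomal protease Ctsh rose by 0.98 ± 0.21 (adjusted p = 0.0164), and it also rose in control septa by 0.95 (adjusted p = 0.0295). Monocyte and interstitial macrophage markers had a median of -0.39, neutrophil markers a median of 0.51, and neither list held a call. In control septa these medians were -0.33 and 0.94. There 1 of 10 and 4 of 11 were called, all higher, the 4 being S100a8, S100a9, Mmp8 and Retnlg.

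Epithelial genes were called singly. All 13 markers of type 2 pneumocytes, which make surfactant, were above 0 with a median of 0.38, and 0 passed the test. In control septa 9 were above 0 with a median of 0.34. Sftpd, surfactant protein D, differed by 0.54 ± 0.14 (SE, limma adjusted p = 0.0579) and Sftpc by 0.08 ± 0.08. The 11 club and goblet cell markers had a median of 0.02, with 6 above and 5 below 0. Of these Scgb3a1, a secretoglobin of the airway lining, was the one called and rose by 2.14 ± 0.53 (adjusted p = 0.039), with 7.05 to 12.55 at 8 months against 5.97 to 9.94 at 3 months. Its 9 other probes gave differences between 2.04 and 2.32, and the call was kept in 9 of 20 fits that left out 1 array. Outside the lists, the cytochrome P450 gene Cyp2b10 rose by 0.91 ± 0.16 (adjusted p = 0.00266). Cyp4b1, also a cytochrome P450 gene, rose by 0.61 ± 0.14 (0.0202) and the carbonyl reductase Cbr2 by 0.58 ± 0.13 (0.0236), both picked after their values were seen.

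Nfe2l2 rose, and the list of its targets was mixed in sign. At 8 months it had 8.16, 8.35 and 9.24, against 7.03, 7.37 and 7.96 at 3 months. No array at 3 months reached the lowest of those at 8 months. The difference was 1.09 ± 0.20 (SE, limma adjusted p = 0.00422). Of 13 genes on the NRF2 list Nfe2l2 itself was the one called. With Nfe2l2 included, 7 of the 13 were above 0 and 6 below, with a median of 0.19. At an unadjusted p under 0.05 in limma there were 4 of the 13, against 12.2% of all genes. In control septa 8 were above 0, with a median of 0.28. Gstm1 differed by -0.52 ± 0.16 (SE) with its brighter probe and by 0.16 ± 0.18 with the other. Gsta3, a glutathione transferase, differed by 0.50 ± 0.13 (adjusted p = 0.0579), Gclc, which makes glutathione, by 0.75 ± 0.26 (0.177), Hmox1 by -0.66 ± 0.34 (0.446) and Nqo1 by -0.59 ± 0.64 (0.787). In control septa Nfe2l2 had 8.40, 9.04 and 9.59 at 8 months, against 6.52, 7.72 and 8.18 at 3 months, and it rose there by 1.39 ± 0.21 (adjusted p = 0.00101). Cyp1a1, the classic target of the aryl hydrocarbon receptor, which senses smoke components, differed by 1.37 ± 0.56 in smoke-exposed septa (adjusted p = 0.273).

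Of the 15 NADPH oxidase genes measured 0 passed the test, with a median difference of -0.01. Cybb, the catalytic subunit of phagocytes, differed by 0.18 ± 0.42 (SE), its partner Cyba by -0.16 ± 0.16, Nox4 by -0.21 ± 0.29 and Nox1, the partner of NOXO1, by -0.01 ± 0.34. Nox1 had a highest log2 signal of 2.79 at 8 months and 2.41 at 3 months, below the guide to background in every array.

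Klf9, a glucocorticoid and clock output gene, had 9.54, 10.36 and 11.37 at 8 months, against 8.14, 9.31 and 10.03 at 3 months. Its ranges overlapped in a few arrays. It rose by 1.28 ± 0.24 (SE, limma adjusted p = 0.00509) and was the one call among 12 glucocorticoid-induced genes, whose median was 0.45. In control septa that median was 0.81. Map3k8, a kinase upstream of ERK in inflammatory signalling, had 3.75, 5.39 and 5.81 at 8 months, against 1.54, 2.74 and 3.83 at 3 months. The groups met through 1 array each, and every 3-month array was below the guide to background. It rose by 2.43 ± 0.45 (adjusted p = 0.00422). Clock genes had a median of 0.40 with 0 of 18 called, and Per3 differed by 1.92 ± 0.58 (adjusted p = 0.1).

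Npnt, nephronectin of the basement membrane, had 11.28 to 12.40 at 8 months, against 12.17 to 13.08 at 3 months, and fell by 0.69 (SE 0.15, limma adjusted p = 0.0144). A second, dim Npnt probe differed by 0.53 ± 0.47. The collagen receptor subunit Itga1 fell by 1.07 (SE 0.26, adjusted p = 0.0358), Col6a2, a chain of collagen VI, by 0.94 (SE 0.23, 0.039) and Gja4, connexin 37 of arterial endothelium, by 1.37 (SE 0.32, 0.0252). Each was the one called gene of its list: 21 laminins and integrins, 19 collagens and 12 arterial and venous markers, with medians of -0.08, -0.08 and 0.21. All 12 smooth muscle markers were below 0 with a median of -0.48 and 0 called. In control septa 7 were below 0 with a median of -0.21. Acta2, smooth muscle actin, differed by -1.03 ± 0.40 (adjusted p = 0.25).

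Utrn, utrophin, had 7.56, 8.82 and 9.52 at 8 months, against 9.17, 10.04 and 10.56 at 3 months. The ranges overlapped slightly. It fell by 1.32 (SE 0.26, limma adjusted p = 0.00822) and also fell in control septa by 1.09 (adjusted p = 0.0478). Lbh, a transcription cofactor, had 5.53, 7.12 and 7.60 at 8 months, against 7.52, 8.95 and 9.28 at 3 months. It fell by 1.81 (SE 0.38, adjusted p = 0.00991). Arid1a, a subunit of the SWI/SNF chromatin remodelling complex, had 6.39, 7.46 and 9.54 at 8 months, against 8.37, 9.40 and 9.88 at 3 months. It fell by 1.74 (SE 0.31, adjusted p = 0.00398) with its brighter probe. The other Arid1a probe differed by 0.78 ± 0.24 in the opposite direction, so the 2 probes disagree, and their mean gave -0.48 (adjusted p = 0.328).

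The remaining large changes were in genes of varied roles. Rises were 2.17 ± 0.53 for Kctd6, an adaptor of a ubiquitin ligase, 2.12 ± 0.54 for the steroid dehydrogenase Akr1c14, 1.89 ± 0.41 for the membrane protein Ms4a4d, 1.80 ± 0.44 for the DNA polymerase Rev1, 1.74 ± 0.44 for the lysosomal chitobiase Ctbs and 1.72 ± 0.37 for the zinc finger protein Zkscan3 (SE, limma adjusted p 0.0144 to 0.0469). In 3 of these 6, Kctd6, Rev1 and Ctbs, the 3-month median was below the guide to background. Falls in log2 signal were 2.05 for Rgs4, a regulator of G protein signalling, 1.85 for Rex1bd, 1.85 for the phospholipase Pla2g6, 1.81 for the anion channel subunit Lrrc8b, 1.74 for the splicing factor Tfip11, 1.65 for the synaptotagmin Syt15, 1.61 for the zinc finger protein Zbtb12, 1.51 for adipogenin, Adig, 1.51 for Srrd and 1.48 for Nsun4, an RNA methyltransferase of mitochondria (adjusted p 0.00706 to 0.0473). Pla2g6 and Adig had no array at 8 months above the guide to background. Second, dimmer probes differed by -0.08 ± 0.39 for Rgs4, -0.2 ± 0.39 for Adig and -0.18 ± 0.39 for Syt15 (SE). That of Nsun4 differed by 0.65 ± 0.33, in the opposite direction. The mean signals of these probes were 2.12 to 3.21, below the guide to background.

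Lists of inflammatory genes gave few calls. None of 20 cytokines and chemokines passed, and Ccl17 differed by 2.04 ± 0.69 (SE, limma adjusted p = 0.16). None of 19 emphysema proteases and inhibitors passed, with 15 above 0 and a median of 0.45, and Mmp8, a neutrophil collagenase, differed by 1.69 ± 0.55 (0.132). In control septa 15 were also above 0, with a median of 0.31 and 2 called, Mmp8 and Adam8. The 12 T and natural killer cell markers had a median of -0.17, with 8 below 0, and Cd8a, a receptor of cytotoxic T cells, differed by -1.44 ± 0.50 (0.175). Gzma, granzyme A of these cells, was the one call among them and rose by 1.24 ± 0.31 (0.0447), and the call was kept in 5 of 20 fits that left out 1 array. The other Cd8a probes gave smaller differences, between -1.25 and -0.56. The mean signal of the Cd8a probe used was 4.21, close to the guide to background of 3.99. Lyve1, a hyaluronan receptor of lymphatic vessels and some macrophages, rose by 0.67 ± 0.17 (0.0396).

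**Figure D3:**
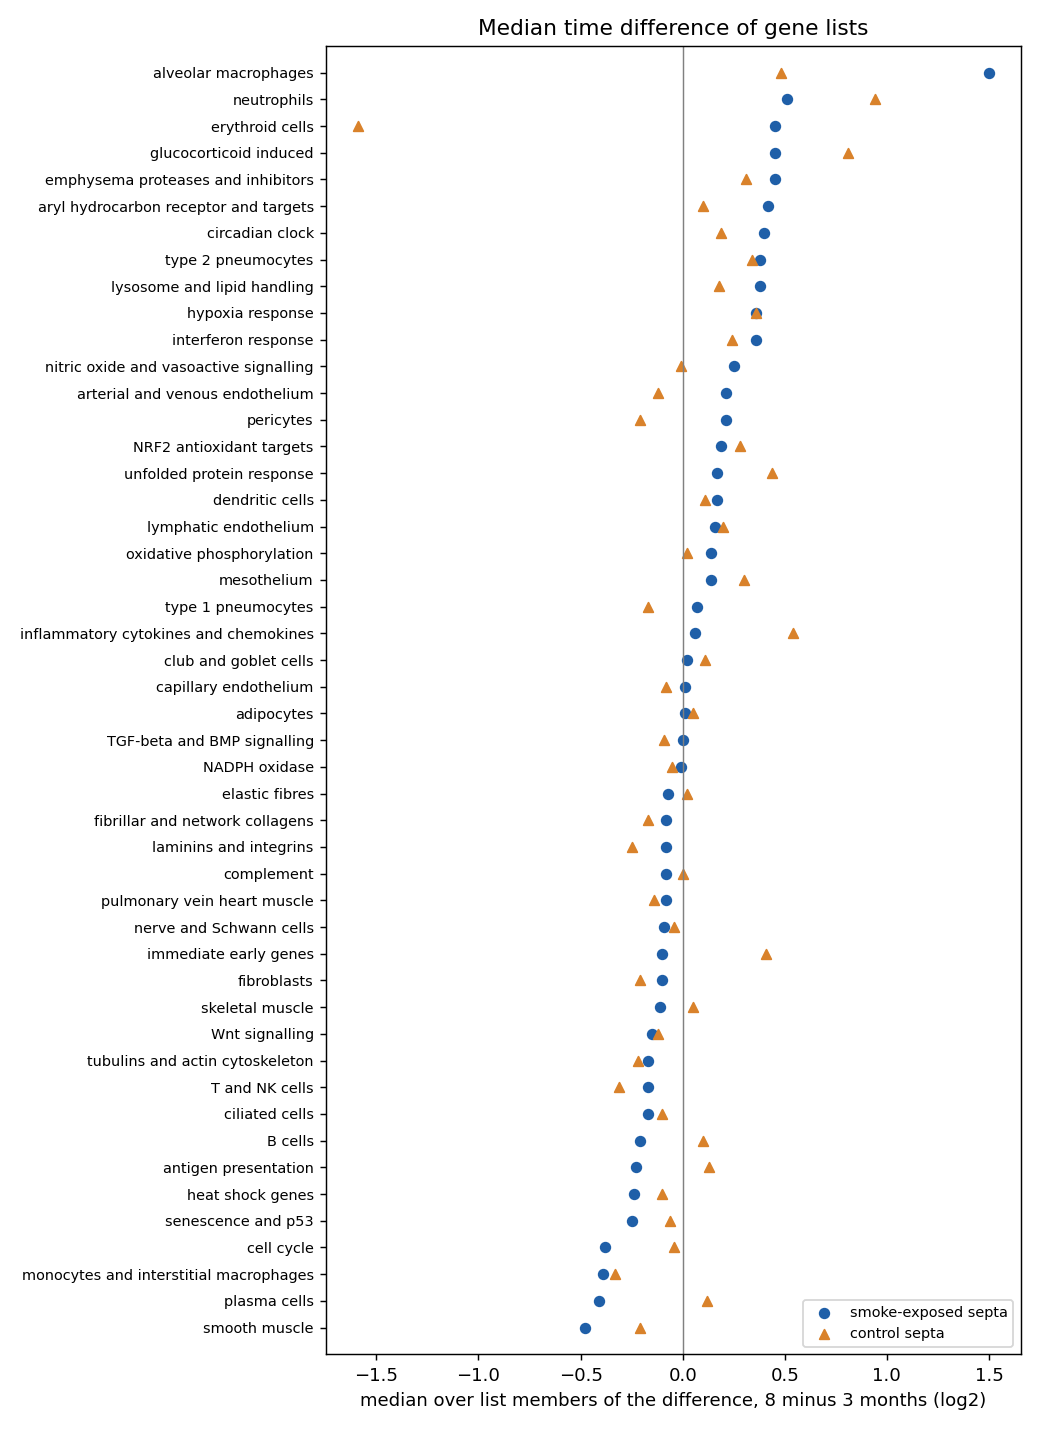
Median difference in log2 signal, 8 minus 3 months, over the members of 48 gene lists, in smoke-exposed septa (circles) and control septa (triangles). Of the lists drawn, alveolar macrophages lie furthest right in smoke-exposed septa at 1.5 and smooth muscle furthest left at -0.48, and the list of 4 sex-linked genes, which is not drawn, had a median of -0.62.

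The genotypes were then separated, which asks whether the change with time in smoke-exposed septa differed with loss of Noxo1. Control arrays do not enter this contrast, so it does not test the response to smoke. In knockout septa 0 genes changed, against 16 in wild-type septa (0.0773% of genes), 14 up (0.0676%) and 2 down (0.00966%). At an unadjusted p under 0.05 in limma there were 1692 genes in knockout septa (8.17%), against 1936 in wild-type septa (9.35%). The difference between genotypes was tested itself, as an interaction, and 0 genes passed (lowest adjusted p 0.962, 4.48% or 927 at an unadjusted p under 0.05). All 144 genes had the same sign in both genotypes, a count that the choice of genes on the mean of both makes likely. The rises had a median of 0.86 in knockout and 1.22 in wild-type septa, the falls -1.14 and -1.27.

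Individual genes leaned to one genotype without passing the interaction test. The 3-month wild-type group, on which these differences turn, also differed in sex-linked genes: Xist exceeded a log2 signal of 8 in 3 of 5 wild-type arrays at 8 months, against 0 of 5 at 3 months, and in 4 of 5 knockout arrays at 8 months, against 3 of 5 at 3 months. Slc6a14 differed by 1.35 ± 0.53 in knockout septa (SE, limma adjusted p = 0.486) and rose by 3.65 ± 0.53 in wild-type septa (0.00032), and the interaction was -2.29 ± 0.75 (0.978). Cyp2b10 had 12.15, 12.03, 12.93, 11.83 and 11.98 in knockout septa at 8 months, against 11.90, 11.72, 11.83, 11.74 and 12.21 at 3 months. In wild-type septa it had 12.46, 12.87, 12.57, 12.10 and 12.42 at 8 months, against 11.58, 10.51, 10.50, 10.53 and 11.69 at 3 months. The 3-month wild-type arrays were the low ones. The interaction was -1.21 ± 0.32 (adjusted p = 0.962).

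Dnajb1, a heat shock co-chaperone, had 10.22, 10.91, 11.49, 11.49 and 9.79 in knockout septa at 8 months, against 10.36, 11.57, 10.88, 11.20 and 10.25 at 3 months. In wild-type septa it had 10.46, 9.99, 11.17, 10.51 and 10.42 at 8 months, against 12.04, 11.81, 12.80, 12.62 and 12.68 at 3 months. All wild-type 3-month arrays lay above all other arrays. It differed by -0.07 in knockout septa (limma adjusted p = 0.976), fell by 1.88 in wild-type septa (0.00246) and had an interaction of 1.81 ± 0.46 (SE, 0.962). With that sex pattern as a covariate the wild-type differences were 3.61 ± 0.58 for Slc6a14 (limma adjusted p = 0.0022), 1.42 ± 0.24 for Cyp2b10 (0.00373) and -1.69 ± 0.35 for Dnajb1 (0.0367), and 17 genes were called in wild-type septa, 14 of them among the 16. The alveolar macrophage list had median differences of 2.29 in knockout and 0.64 in wild-type septa, and 0 of its 13 members passed the interaction test.

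**Figure D4:**
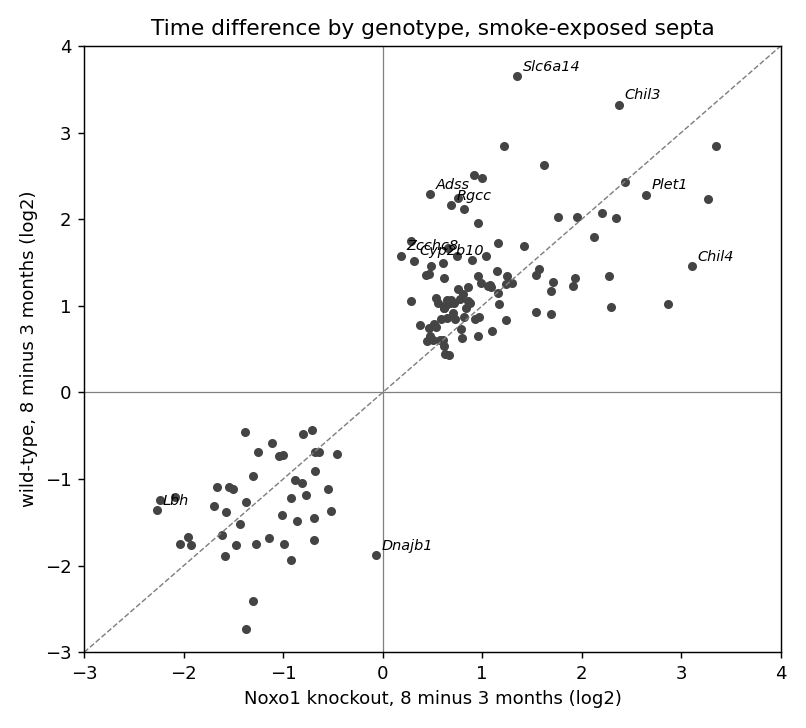
Difference in log2 signal, 8 minus 3 months, of the 144 genes that changed, in knockout septa (horizontal) and wild-type septa (vertical), with the dashed line where both are equal. Slc6a14 lies at 1.35 in knockout and 3.65 in wild-type septa, and no gene passed the test of the difference.

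Control septa show what changed between the same months without smoke. There 99 genes changed (0.478%), 63 up (0.304%) and 36 down (0.174%). Of the 144 genes of smoke-exposed septa 134 (93.1%) had the same sign in control septa, against 58% of all genes. The 20 called in both were 13.9% of the 144 and 20.2% of the 99, and all 20 had the same sign. Among them were Nfe2l2, Tm2d1, Prcd, Ctsh, Lyve1, Npnt, Itga1 and Utrn. Median differences of the 99 rises were 1.05 in smoke-exposed and 0.54 in control septa, and those of the 45 falls were -1.21 and -0.54. The 144 genes were chosen on their values in smoke-exposed septa, which makes larger medians there likely. The gap between these medians therefore does not measure an effect of smoke.

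Tm2d1, a membrane protein, had 8.25, 9.25 and 9.55 in smoke-exposed septa at 8 months, against 6.83, 7.68 and 8.35 at 3 months. All arrays at 8 months but 1 exceeded every 3-month array. It rose by 1.45 ± 0.26 with smoke (SE, limma adjusted p = 0.00398), by 1.36 ± 0.27 in controls (0.0102) and by 1.93 ± 0.36 in vessels (0.0132). Prcd, a small photoreceptor protein with a second, dimmer probe at 0.32 ± 0.44, rose by 1.99 ± 0.44 with smoke (0.0157) and by 2.26 ± 0.45 in controls (0.0109).

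The test of whether the change with time differed between smoke-exposed and control septa called 0 genes. Without adjustment 1232 genes had p under 0.05 (5.95%), and the lowest limma adjusted p was 0.42. For Retnla it was 2.70 ± 0.96 (SE, 0.812), from 2.75 with smoke and 0.05 in controls. For Idh1, a cytosolic enzyme that makes NADPH, it was 2.40 ± 0.72 (0.778), from 2.03 and -0.37. For Gab2, which relays receptor signals to PI3 kinase, it was -1.89 ± 0.62 (0.791), from -1.90 and 0.00. For Chil3 it was 1.84 ± 0.76 (0.812), from 2.85 and 1.01. All of these genes were picked from those called in smoke-exposed septa, which makes a larger difference with smoke than in controls likely. The genes of lowest p in this test are not described.

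**Figure D5:**
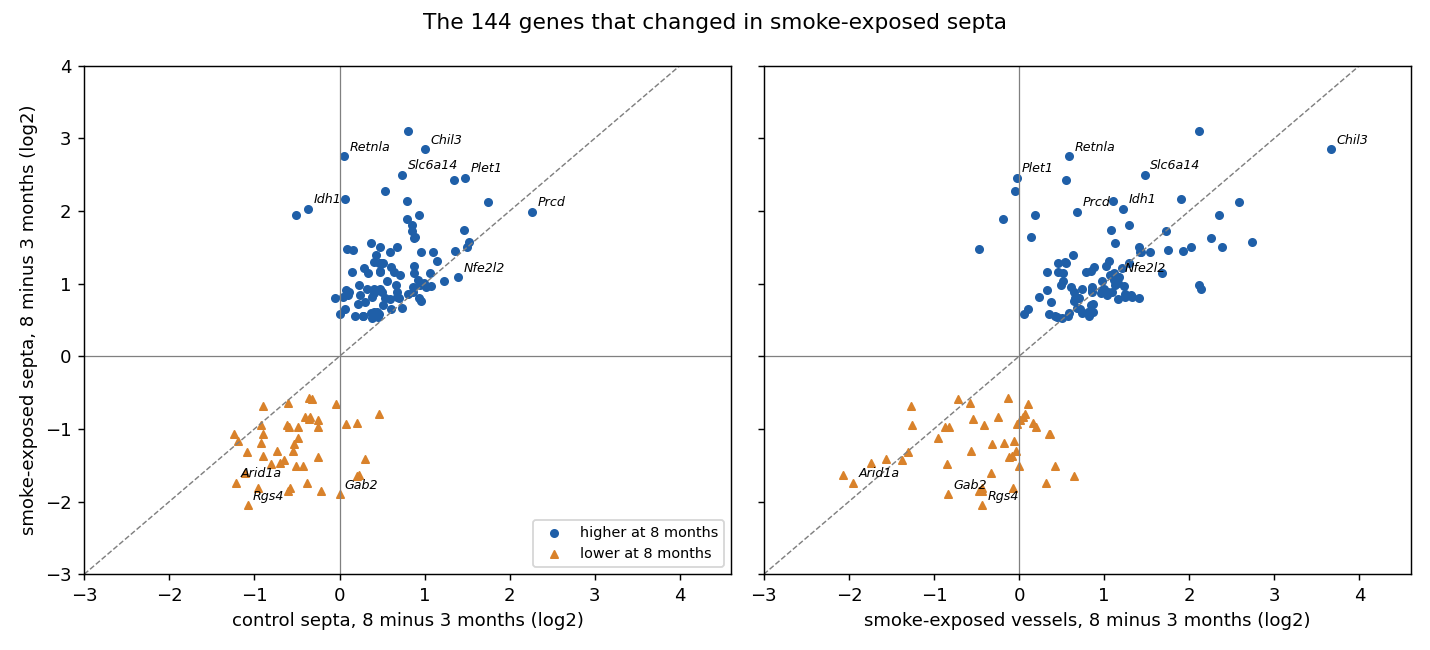
Difference in log2 signal, 8 minus 3 months, of the 144 genes that changed in smoke-exposed septa (vertical), set against control septa (left) and against vessels of smoke-exposed mice (right). Circles rose and triangles fell, and the dashed line marks equal differences. In control septa 134 points share the sign, and in vessels 128.

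In vessels dissected from the same smoke-exposed mice 39 genes changed (0.188%), 36 up (0.174%) and 3 down (0.0145%). Of the 144 genes 128 (88.9%) had the same sign there, against 59.2% of all genes, with 95 of the 99 rises and 33 of the 45 falls. The 6 called in both tissues were Asxl2, Chp1, Dazap2, F3, Man2a1 and Tm2d1, 4.17% of the 144 and 15.4% of the 39. Second, dimmer probes differed in septa by -0.31 ± 0.36 for Asxl2, -0.32 ± 0.45 for Chp1 and 0.39 ± 0.39 for F3 (SE). F3, tissue factor, which starts coagulation, had 8.44, 8.90 and 9.81 in septa at 8 months, against 5.85, 7.57 and 8.67 at 3 months. It rose by 1.44 ± 0.34 in septa (SE, limma adjusted p = 0.0267) and by 1.54 ± 0.31 in vessels (0.0198). Chil3 differed by 3.67 ± 0.99 in vessels (0.108) and Plet1 by -0.03 ± 0.73.

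Tested between tissues, 1 gene differed in its change with time (0.00483%), and 1367 did at an unadjusted p under 0.05 (6.6%). Ap3m2, a subunit of an adaptor complex of vesicle traffic, differed by -0.49 ± 0.47 in septa and rose by 3.95 ± 0.67 in vessels (SE, limma adjusted p = 0.00883), a septa minus vessels difference of -4.43 ± 0.81 (0.0125).

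Sex is not given in the labels and was unevenly spread by a rule on sex-linked genes. Xist, the RNA of the inactive X, exceeded the mean of 3 Y-linked genes (Eif2s3y, Kdm5d and Uty) in 7 of 10 smoke-exposed arrays at 8 months, against 4 of 10 at 3 months (two-sided Fisher's exact test, p = 0.37). It did so in 1 of 10 control arrays at 8 months, against 3 of 9 at 3 months. This rule counts 1 wild-type array at 3 months, with Xist at 4.39 and Eif2s3y at 7.70. The rule of Xist above 8, added after the data were seen, does not, and gave 7 of 10 at 8 months, against 3 of 10 at 3 months (two-sided Fisher's exact test, p = 0.179). With the first pattern as a covariate 133 genes were called, 105 of them among the 144, and with the second 112, 83 of them among the 144. Of the genes named here Gzma, Lyve1, Idh1, Dnajb1, Asxl2, Man2a1, Gm2710, Kctd6, Akr1c14, Ctbs, Pla2g6, Zbtb12 and Nsun4 lost their call under both, and Ctsh, F3, Npnt, Prcd and Syt15 under the second alone. Arrays correlated with the other smoke-exposed septa at a median of 0.898 to 0.932, and none stood apart.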

How the data were processed

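The deposited values were log2 signals, 1 column per array, made by the authors from single-colour Agilent arrays, per the labels' protocols, which name the RNeasy Micro kit for RNA and the Ovation PicoSL WTA V2 kit for amplification. The submitters' processing notes name limma without a version. Column medians of 3.19 to 3.192 show values already quantile normalized across arrays, and no source used here gives the background correction. Per the series' design text, 40 mice were used and 4 arrays without signal were not analysed.

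Of 62976 features 31465 had a gene symbol and 29050 of these were matched by accession to a mouse RefSeq list. Features with an empty cell were left out (285 named), the brightest feature was kept for 6007 genes with several, and 20710 genes were tested. Each of 8 septa groups (39 arrays) had its own mean in limma 3.58.1 (R 4.3.3), with eBayes and an intensity trend, and time was the mean of both genotypes' differences. Adjusted p-values are Benjamini-Hochberg over all genes, called under 0.05. Vessels were fitted likewise, and the tissue test used all 76 arrays with mouse as a random block (correlation 0.0262). The septa fit for time in smoke-exposed septa was tested on simulated data with independent normal noise. The vessel fit and the fit with a mouse block were not. The number of arrays limits the precision, and p-values measure the spread between mice.

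Genes to name were drawn by a rule that allowed, of the called genes, the 15 that rose most and the 15 that fell most above the 25th percentile of mean signal and with a proper symbol, up to 5 for other comparisons, up to 4 members of lowest p from each of 49 gene lists, and Noxo1. Not every gene it allowed outside the main comparison is described. Genes outside this rule, such as Ctsh, F3, Cbr2 and Cyp4b1, were chosen after their values were seen. The groups, members and lists were chosen with earlier results of these data known. Replicate numbers did not pair mice: deviations of same-numbered arrays correlated at a mean of 0.0111 over 30 pairs, none over 0.1. Alternatives were another normalization, probe means, a filter on dim genes, array weights, no trend, a replicate block, sex as a covariate, other sets of arrays in the fit, and leaving out each array. A sex rule on Xist above 8 was added after the data were seen.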

Additional observations from a re-analysis of the deposited data

Results flagged for a closer look

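In groups of 5 arrays, 12 of 184 sets of values held an array far from the other 4 by Dixon's criterion, and chance alone gives about 1 in 20. Among knockout arrays at 8 months Serpinb6b was 11.18 in replicate 1 (nearest 10.63). Among wild-type arrays at 8 months, Noxo1 was 5.57 in replicate 1 (nearest 3.27), Col6a2 was 7.99 in replicate 3 (nearest 9.12) and Tm2d1 was 8.25 in replicate 4 (nearest 9.16). Among knockout arrays at 3 months Rgs4 was 3.88 in replicate 5 (nearest 5.73) and Lrrc8b was 9.05 in replicate 1 (nearest 8.00). Among wild-type arrays at 3 months, replicate 1 had Slc6a14 at 4.65 (nearest 2.27) and Syt15 at 3.91 (nearest 6.36). Replicate 3 had Serpinb6b at 8.42 (nearest 9.49) and replicate 4 had Gja4 at 10.58 (nearest 9.73). Replicate 5 had Pla2g6 at 2.08 (nearest 4.70) and Arid1a at 8.37 (nearest 9.19).

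Ap3m2 was the gene whose change with time differed between tissues, by -4.43 on the log2 scale for septa minus vessels. The count of calls in that test was 0 without knockout vessel replicate 3 and 0 without knockout vessel replicate 4, both at 8 months.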

How the results depend on the processing

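The count of 144 genes for time in smoke-exposed septa was 226 without dim genes, 91 without the intensity trend and 18 in 1 fit over 76 arrays with a mouse block. The other settings gave 112 to 173. Leaving out single arrays gave 80 to 183, with 81 without knockout replicate 2 and 80 without wild-type replicate 3, both at 3 months. No gene changed sign, 62 of 144 were called in every such fit, and 9 in every alternative: Chil4, Gm6522, Klf9, Nfe2l2, Paip2, Serpinb6b, Slc6a14 and Tm2d1 higher, and Utrn lower. Retnla was called in 16 of 30 alternatives (adjusted p 0.0158 to 0.177), Dnajb1 in 17 (0.0104 to 0.401) and Chil3 in 29 (0.00136 to 0.165).

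Knockout septa gave 0 to 5 calls without single arrays (1 without replicate 4 at 8 months, 5 without replicate 5 at 3 months). In wild-type septa the 16 calls were 3 with only the groups compared and 0 in the fit over 76 arrays, and 11 to 24 without single arrays. Both interaction tests, genotype by time and smoke by time, gave 0 under each setting run. Control septa (99) gave 37 without the trend, 5 in the fit over 76 arrays and 29 to 108 without single arrays. The low counts were 29 without knockout replicate 3, 59 without wild-type replicate 1 and 38 without wild-type replicate 4, all at 3 months. Vessels (39) gave 22 with quantile normalization repeated, 12 with probe means, 64 without dim genes, 74 with array weights, 16 without the trend, 5 with sex as a covariate, 7 with only the groups compared, 428 in the fit over 76 arrays, and 16 to 60 without single arrays. The tissue test gave 0 to 2 without single arrays. Beyond the smaller sets of genes or arrays, the cause was not tested.

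With the replicate number as a block the main count was 173, knockout septa gave 1, wild-type septa 21, control septa 104 and vessels 42. The numbers do not pair the mice.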

Other observations

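Features with no gene symbol were tested apart. Of 31125 such features 65 changed with time in smoke-exposed septa (27 higher and 38 lower, 0.209%), against 31 in control septa, and 0 passed the genotype by time or smoke by time test in limma.

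Of the 144 called genes 52 had other probes. Of those 94 probes 78 had the sign of the chosen one, 48 of them at an unadjusted p under 0.05.

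By signal, knockout replicate 3 at 8 months combined a high Xist (12.08) with an Eif2s3y of 6.19, while its Kdm5d and Uty were low (1.36 and 1.95).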
